A study of Mus musculus with 1009 samples.

Results

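Acute dietary restriction (aDR) was compared with ad libitum feeding (AL) in the hindbrain and cerebellum of old mice, through small RNA libraries of pons, medulla and cerebellum. These 25 libraries were selected by region from the 113 libraries of 14 brain regions in the dietary cohort, and every one of them was used. They came from 9 female C57BL/6JN mice killed at 19 months of age, with no genetic change in either group. The 5 aDR mice (numbered 61, 62, 64, 65 and 67) were moved at 18 months from free feeding to a restriction of 10% for 7 days and then of 25%, and were fed once a day. The 4 AL mice (63, 66, 68 and 69) had free access to food. Pons was represented by 4 aDR and 4 AL mice, medulla by 5 aDR and 4 AL mice, and cerebellum by 4 aDR and 4 AL mice. All animals were killed in the hours before the daily meal of the aDR group, so the effect of the time since the last meal and that of the restriction itself cannot be told apart.

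MicroRNAs (miRNAs) are short RNAs that guide Argonaute proteins to messenger RNAs, mainly by pairing of their seed, the bases near their 5′ end, and thereby lower the stability or translation of the target. Dietary restriction lowers insulin and growth signalling and extends lifespan in many laboratory animals. In the hindbrain and cerebellum, miRNAs are known for their part in neuronal identity, myelination and the response of microglia to inflammation.

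The mature sequences of the miRNAs on which the comparisons turned are shown here first, in RNA letters from 5′ to 3′, as RefSeq annotates them on GRCm38.p6. The capitals mark the seed, bases 2 to 8. The miR-200 family and its companions are shown because they carried the calls in pons. The family holds both of its known seed classes, 1 shared by miR-200b-3p, miR-200c-3p and miR-429-3p and another shared by miR-200a-3p and miR-141-3p. miR-7a-5p and miR-7b-5p share a seed as well. miR-375-3p was called with them.
miR-200b-3p: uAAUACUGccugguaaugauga
miR-200c-3p: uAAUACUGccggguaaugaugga
miR-429-3p: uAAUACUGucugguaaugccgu
miR-200a-3p: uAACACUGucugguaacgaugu
miR-141-3p: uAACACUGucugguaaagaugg
miR-205-5p: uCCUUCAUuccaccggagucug
miR-7a-5p: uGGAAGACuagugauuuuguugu
miR-7b-5p: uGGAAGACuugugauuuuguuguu

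The calls in cerebellum were of 2 miRNAs that lie in introns of the same gene, and the smallest p in medulla among miRNAs of at least 10 CPM was that of miR-206-3p, followed by miR-26b-5p and by let-7 family members with a common seed.
miR-448-3p: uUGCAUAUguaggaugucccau
miR-1298-5p: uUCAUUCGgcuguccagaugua
miR-206-3p: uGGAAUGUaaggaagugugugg
miR-26b-5p: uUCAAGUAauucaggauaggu
let-7f-5p: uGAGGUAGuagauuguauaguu
miR-98-5p: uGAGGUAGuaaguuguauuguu

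The next 4 were followed in every library because the study tied the first 3 to brain aging and the fourth, miR-451a, marks red blood cells.
miR-155-5p: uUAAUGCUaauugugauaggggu
miR-146a-5p: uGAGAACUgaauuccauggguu
miR-5100: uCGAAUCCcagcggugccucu
miR-451a: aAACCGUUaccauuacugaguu

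The last 4 set the regions apart, with miR-195a-5p and miR-497a-5p sharing a seed and high in cerebellum, and miR-10a-5p and miR-10b-5p sharing a seed and high in medulla.
miR-195a-5p: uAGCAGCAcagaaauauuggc
miR-497a-5p: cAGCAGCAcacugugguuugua
miR-10a-5p: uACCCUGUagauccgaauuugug
miR-10b-5p: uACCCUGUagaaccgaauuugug

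The libraries held 3.96 to 18.7 mega-reads (1000000 reads each) of miRNA in pons, 3.74 to 10.6 in medulla and 12.7 to 27.4 in cerebellum. Levels below are counts-per-million (CPM) scaled over the 25 libraries by the trimmed mean method (TMM) of edgeR, and 1334 of 1966 miRNAs passed a filter on low counts. let-7c-5p was the most abundant miRNA in all 25 libraries, with 9.79 to 36.4% of the miRNA reads. The 11 members of the let-7 list together took 41.8 to 81.8% of the reads in pons, 33.9 to 52.7% in medulla and 55.1 to 90.4% in cerebellum, and the TMM factors that offset such differences ran from 0.108 to 3.49. A common depth of 3 mega-reads would have shown 431 to 1070 miRNAs per library, most in medulla. Over 9 tests of depth, let-7c-5p share and number of detected miRNAs against diet, the smallest p was 0.0476 (two-sided exact permutation test, adjusted p = 0.357), for a let-7c-5p share in medulla of 12.9% in aDR and 15.9% in AL. The medulla label was checked with miR-10b-5p, a miRNA of the Hoxd cluster, whose genes are active in posterior hindbrain and spinal cord. It stood at 8.76 to 32.2 CPM in the 9 medulla libraries, at 0 to 1.39 CPM in pons and at 0 to 2.91 CPM in cerebellum, so that medulla did not overlap with the others. Pons and cerebellum overlapped, so their labels were not checked by it.

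**Figure D1:**
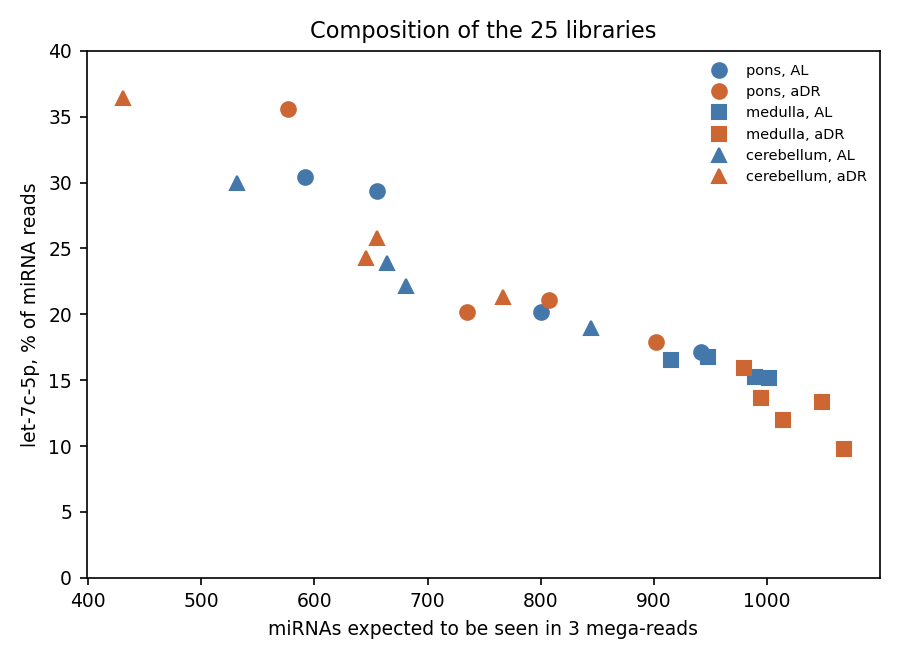
Share of let-7c-5p in the miRNA reads (vertical axis, percent) against the number of miRNAs expected to be seen in 3 mega-reads (horizontal axis), with 1 point per library, shape for region and colour for diet. Libraries with a larger let-7c-5p share showed fewer miRNAs, from 431 to 1070, and aDR and AL libraries were interspersed in pons and cerebellum.

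In pons, 17 of 1213 tested miRNAs were called, all higher in aDR, at a Benjamini-Hochberg adjusted p below 0.05 and a change of at least 1.5-fold (1.4% of tests, edgeR quasi-likelihood test). All 17 were highest in 1 library, that of aDR mouse 67. They were 5 members of the miR-200 family (miR-200a-3p, miR-200b-3p, miR-200c-3p, miR-141-3p and miR-429-3p) with the opposite arms miR-200a-5p and miR-141-5p, the miR-183 cluster (miR-182-5p, miR-183-5p and miR-96-5p), miR-375-3p, miR-7a-5p, miR-7b-5p, miR-205-5p, miR-494-5p, miR-574-5p and miR-672-5p. The miR-200 family keeps epithelial cells from changing to a mesenchymal form and is abundant in olfactory bulb, the miR-183 cluster is known from sensory cells, and miR-205 from stratified epithelia.

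miR-375-3p, known from endocrine cells such as those of the pancreatic islet, was the most abundant of them. Its level in aDR pons was 1212, 1960 and 70.8 CPM in mice 61, 62 and 65 and 264340 CPM in mouse 67, where it took 18.3% of all miRNA reads. The AL mice 63, 66, 68 and 69 had 226, 43.3, 543 and 86.2 CPM, and 3 of the 4 lay inside the range of the aDR group. The fitted log2 fold change was 8.25 (SE 1.18, edgeR adjusted p = 2.53e-08), and it rests on a library that was 135 times as high as the next.

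miR-200c-3p was likewise highest in mouse 67 and lowest in mouse 66. It is encoded at chr6:124718322-124718390 (GRCm38, minus strand) beside miR-141, in an intron of the antisense transcript Gm15884. The aDR libraries had 43.5, 7.59, 1.78 and 7512 CPM, the last being mouse 67, and the AL libraries had 2.52, 0.827, 26.9 and 1.06 CPM, which overlapped with the other aDR mice (log2 fold change 7.92, SE 1.04, edgeR adjusted p = 1.13e-09). miR-429-3p, encoded at chr4:156053905-156053987 within Ttll10, reached 10944 CPM in mouse 67. In the other 3 aDR mice it lay at 39.1, 25.6 and 0.594 CPM, and in the AL mice at 7.05, 0.414, 249 and 4.66 CPM.

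miR-7a-5p and miR-7b-5p, both known from neuroendocrine cells and hypothalamus, stood at 31650 and 16980 CPM in mouse 67, against 253 to 1463 CPM and 75.4 to 486 CPM in the other 7 pons libraries. miR-205-5p was at 212.2 CPM there and at 0 to 8.22 CPM elsewhere. The other 3 aDR mice did not exceed the AL maximum for miR-7a-5p or miR-7b-5p, and mice 61 and 62 did so for miR-205-5p, with 8.22 and 2.79 CPM against at most 1.63 CPM.

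The log2 fold changes of the 17 ran from 2.84 (miR-672-5p) to 8.25 (miR-375-3p), leaving out miR-141-5p, which had no read in any AL library. It was at 53.3 CPM (691 reads) in mouse 67 and at no more than 0.380 CPM in the other libraries. None of the 17 separated the groups without overlap, whereas 9 of 1213 miRNAs did (0.742%), 3 higher (0.247%) and 6 lower (0.495%) in aDR. Without mouse 67, 1 of 1194 miRNAs was called, miR-375-3p (log2 fold change 2.37, SE 0.555, edgeR adjusted p = 0.0227). Of the 17, 10 then still had a positive difference and 4 an unadjusted p below 0.05. DESeq2, limma voom, a mean of at least 10 CPM and the number of detected miRNAs as a term gave 0 calls each, and 77 miRNAs (6.35%) had an unadjusted p below 0.05.

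**Figure D2:**
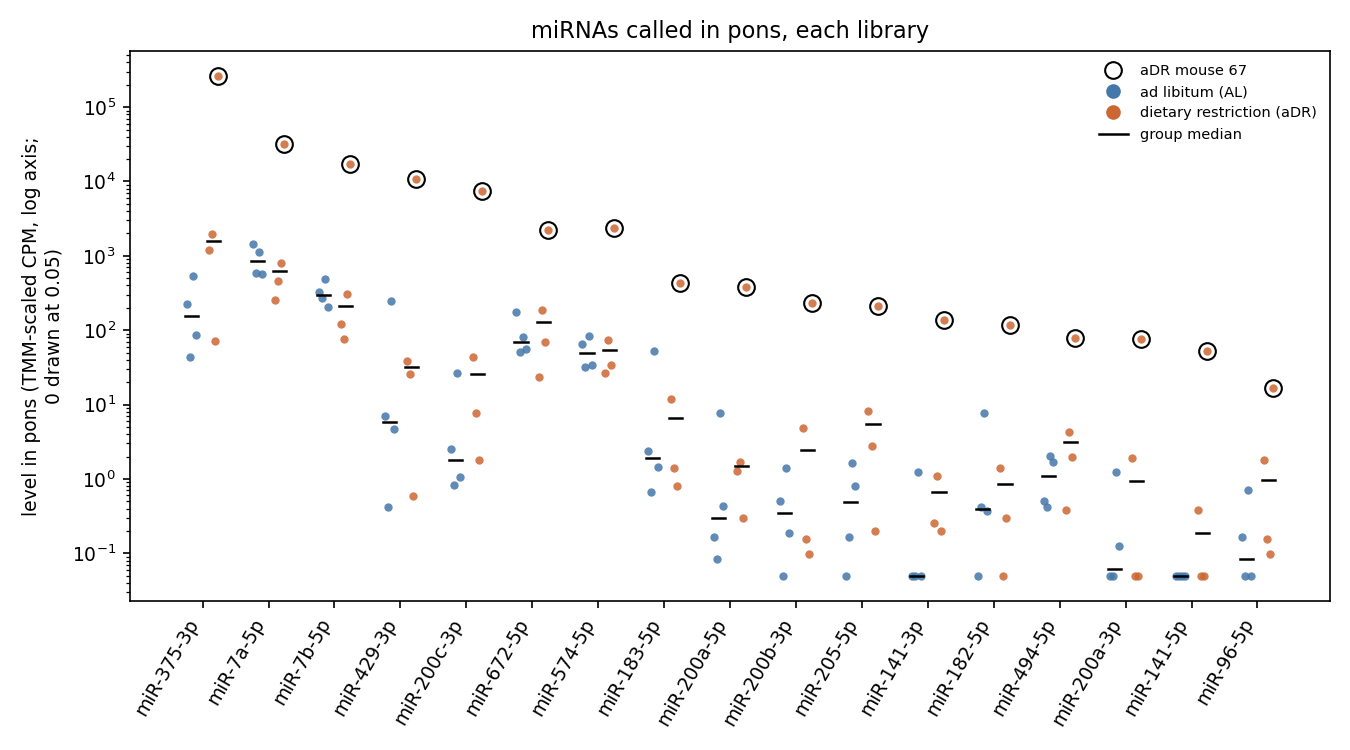
Level of the 17 called miRNAs in each pons library (vertical axis, TMM-scaled CPM on a log axis, with 0 drawn at 0.05), AL in blue, aDR in orange, with a bar at each group's median and a ring around aDR mouse 67. The ringed library was highest for each of the 17, and the other aDR libraries overlapped with the AL libraries.

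The olfactory bulb list, made of the 5 miR-200 members and the miR-183 cluster, had 8 of 8 members called in pons, where 1.4% of all miRNAs were (median log2 fold change 5.59, against −0.02 over all tested). All 8 were highest in mouse 67, and 5 of 8 were called with relative log expression factors or with total-count scaling and 0 without that mouse. In medulla 0 of 8 were called, but 8 of 8 had a positive difference (median log2 fold change 1.73, against 0.05 over all tested) and 2 an unadjusted p below 0.05, miR-141-3p and miR-200a-3p (2.56% of all miRNAs in that direction, edgeR). The summed level of the list in medulla was 263, 548, 243, 5.55 and 232 CPM in aDR mice 61, 62, 64, 65 and 67 and 179, 119, 15.1 and 10.4 CPM in AL, so that 4 aDR mice lay above the AL range and mouse 65 below it. Leaving out 1 mouse gave a median of 1.38 to 2.58, with 0 (without mouse 62) to 7 (without mouse 63) of 8 at that p. In cerebellum 3 of 7 were positive. Over the 3 regions 8 of 8 were positive at a median of 1.63, and 8 of 8 at 1.13 without the pons library of mouse 67 and the cerebellum library of mouse 68, with 1 and 0 at an unadjusted p below 0.05 (1.97% of all miRNAs in that direction, limma). Orders between regions are next given on a TMM scale common to the 113 libraries, and were not examined with total-count scaling. On this scale, the summed level of the list was 29400 CPM in the pons library of mouse 67. It ranged from 96880 to 235600 CPM in the 9 olfactory bulb libraries, while the lowest pons library had 3.44 CPM. miR-375-3p, miR-7a-5p, miR-7b-5p and miR-205-5p had their highest value of the whole cohort in that library. Their medians in olfactory bulb were 667, 4080, 2030 and 14.7 CPM, above the 319, 913, 403 and 1.28 CPM of the other 7 pons libraries. In hypothalamus they were 374, 11200, 3240 and 5.19 CPM, also above those of pons, and miR-375-3p had its highest median, 1461 CPM, in the subventricular zone. On the same scale miR-375-3p was 399400 CPM in mouse 67 pons, followed by 78040 CPM in the entorhinal cortex of aDR mouse 62 and 4381 CPM in the medulla of that mouse. In the other regions of mouse 67 it ranged from 24.6 CPM in caudate putamen to 2801 CPM in medulla, with 199 CPM in cerebellum. Of 5 miRNAs that were higher in pons than in medulla, 3 lay in that library inside the range of the other pons libraries (miR-139-3p, miR-412-3p and miR-542-5p). The others lay above it, with miR-668-3p at 3487 CPM against 203 to 1716 CPM and miR-132-3p at 2982 CPM against 10.8 to 1529 CPM. The part of other tissue in this library was not tested. In such bulk tissue, more cells of a type and more RNA per cell cannot be told apart.

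In medulla, no miRNA of 1290 was called (0% of tests, smallest edgeR adjusted p = 0.635). An unadjusted p below 0.05 was found for 92 (7.13%), 59 lower and 33 higher in aDR (4.57% and 2.56%), and DESeq2 gave 0 calls with 70 at that p. This split depended on scaling, since with total counts 0 were called and 176 had such a p, 168 higher and 8 lower, at a median of 0.48 over all miRNAs. Medulla was the region with the smallest error, with a median SE of 0.265 on the log2 scale among miRNAs of at least 10 CPM, compared with 0.644 in pons and 0.522 in cerebellum.

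The smallest p belonged to miR-206-3p, best known as a miRNA of skeletal muscle, which is encoded at chr1:20679010-20679082 in an exon of the long noncoding RNA Gm28653. In medulla the AL mice had 128, 201, 142 and 136 CPM and the aDR mice 61.5, 69.4, 84.9, 112 and 63.2 CPM. Every aDR library was below every AL library, as for 11 of 1290 miRNAs in this direction (0.853%). The log2 fold change was −0.96 (SE 0.242, 95% interval −1.48 to −0.44, adjusted p = 0.635 in edgeR). It was −0.14 in pons (interval −1.34 to 1.06) and 0.32 in cerebellum (interval −0.77 to 1.40).

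miR-26b-5p and miR-26a-5p, encoded in introns of phosphatase genes of the Ctdsp family, came next among abundant miRNAs with let-7f-5p and miR-98-5p. Their log2 fold changes were −0.75, −0.78, −0.79 and −0.83, with unadjusted edgeR p from 0.00548 to 0.00683. With total-count scaling miR-26b-5p and miR-26a-5p were both at −0.30, with unadjusted edgeR p of 0.154 and 0.103. With the number of detected miRNAs as a term they were at −0.37 and −0.21, with unadjusted edgeR p of 0.141 and 0.334. let-7f-5p was at 9479, 11662, 9776, 19624 and 12251 CPM in aDR and at 20638, 16401, 27323 and 21199 CPM in AL. Only aDR mouse 65 reached into the AL range.

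let-7 miRNAs restrain growth and insulin signalling genes and are among the most abundant miRNAs of the brain. Of 11 members, 11 had a negative difference in aDR medulla and 10 had an unadjusted p below 0.05 (4.57% of all miRNAs in that direction), with a median log2 fold change of −0.65 (0.05 over all tested). With scaling by total miRNA count, 10 of 11 were still negative at a median of −0.23, against 0.48 over all miRNAs, and none had a p below 0.05. With the number of detected miRNAs as a term, 10 of 11 were negative at a median of −0.22, and 0 had a p below 0.05. miR-206-3p kept −0.58 and −0.88 under these settings. In cerebellum, with TMM, all 11 let-7 members were positive in aDR instead, at a median of 0.70 against −0.05 over all tested. There 1 had an unadjusted edgeR p below 0.05, as had 21 of 1207 miRNAs in that direction. The summed level of the list in cerebellum was 886320, 8382100, 1823000 and 1793200 CPM in aDR mice 61, 62, 64 and 67. In AL mice 63, 66, 68 and 69 it was 3978300, 517440, 1537200 and 1255400 CPM. The groups thus overlapped, and aDR mouse 62 was far the highest. Without mouse 62, the difference of let-7k went to 0.011. In pons 8 of 11 were negative, at a median of −0.06 against −0.02, and 0 had such a p. let-7 levels were negatively correlated with the number of detected miRNAs for all 11 members in each region (r from −0.964 to −0.677 over the 9 medulla libraries, which share that measure of composition). aDR medulla libraries showed 1020 miRNAs on average and AL libraries 963. The part of composition in the let-7 difference was not tested.

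In cerebellum, 2 of 1207 miRNAs were called, both lower in aDR (0.166%, edgeR). These were miR-448-3p and miR-1298-5p, encoded at chrX:147158210-147158321 and chrX:147064905-147065002 in introns of Htr2c, which encodes a serotonin receptor abundant in choroid plexus. Both calls came from 1 library, that of AL mouse 68. miR-448-3p was at 1.08, 0.793, 62.1 and 0.651 CPM in AL mice 63, 66, 68 and 69 and at 0, 0.727, 0.468 and 0 CPM in aDR mice 61, 62, 64 and 67 (log2 fold change −6.06, SE 0.988, adjusted p = 4.99e-06). miR-1298-5p was at 1.94, 8.73, 88.4 and 1.21 CPM in AL and 0.804 to 1.82 CPM in aDR (log2 fold change −4.52, SE 0.795, adjusted p = 2.64e-05). Without mouse 68, 0 of 1196 miRNAs were called in cerebellum, 31 of them with an unadjusted p below 0.05, and the log2 fold changes of miR-448-3p and miR-1298-5p were −1.70 and −1.82.

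The same library was highest for miR-34c-3p (694 CPM against 28.3 to 127 CPM), miR-34b-3p (200 CPM against 15.0 to 34.7 CPM) and miR-375-3p (811 CPM against 4.63 to 131 CPM). The miR-34b/c pair is known from ciliated epithelia such as ependyma. The list of choroid plexus and ependyma miRNAs had both called members and 4 of 9 with an unadjusted p below 0.05, these 4 all lower in aDR (1.82% of all miRNAs in that direction), with a median of −1.46 against −0.05. Of the 9, 3 had a positive difference. Mouse 68 was also highest for miR-34b-5p (87.9 CPM against 1.82 to 32.0 CPM) and miR-34c-5p (69.6 CPM against 1.82 to 27.0 CPM) of this list. List counts and the list median were not taken without that mouse. The summed level of the list in cerebellum was 45832 to 101990 CPM in aDR and 22270 to 66794 CPM in AL. miR-204-5p and miR-211-5p, the abundant miRNAs of choroid plexus, were second of the 8 cerebellum libraries in mouse 68, with 63630 CPM against 21310 to 98440 CPM and 2231 CPM against 659 to 2965 CPM. On the TMM scale common to the 113 libraries, miR-204-5p had a higher median in cerebellum (73040 CPM) than in choroid plexus (43050 CPM). This order was not examined with total-count scaling, which lowered cerebellum levels against those of pons and medulla, as given below. The part of attached choroid plexus or ependyma was not tested. With the calls, 43 miRNAs (3.56%) had an unadjusted p below 0.05. Both called miRNAs had a mean below 10 CPM in the fit, and no miRNA of at least 10 CPM had an adjusted p under 0.302. Besides miR-34c-3p (−1.91), miR-375-3p (−1.59) and miR-34b-3p (−1.42), miR-323-5p (1.35) and let-7k (1.17) had the smallest p. miR-34c-3p was at −0.0055 without mouse 68 and let-7k at 0.011 without mouse 62.

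**Figure D3:**
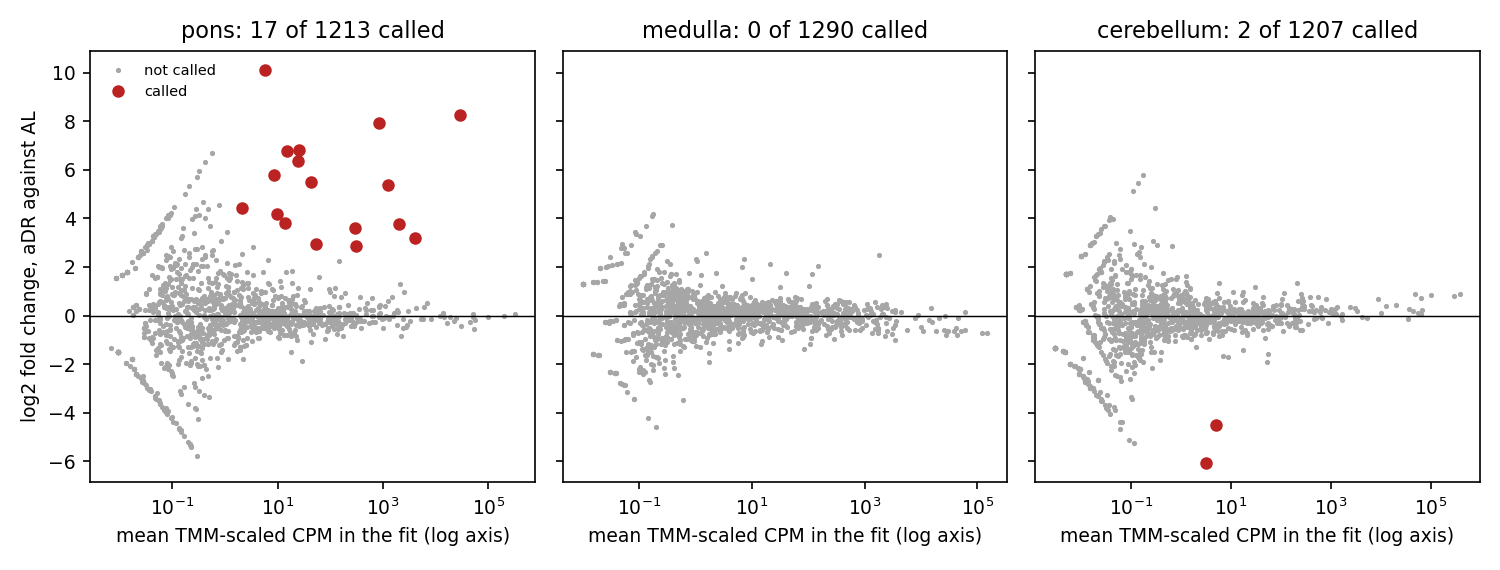
log2 fold change of aDR against AL (vertical axis) by mean level in the fit (horizontal axis, TMM-scaled CPM on a log axis) for each tested miRNA in pons, medulla and cerebellum, called miRNAs in red. The 17 calls in pons were all above 0 and the 2 in cerebellum below it, and the spread was smallest in medulla.

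Over the 3 regions together, with region as a term and the mouse as a random block in limma voom, no miRNA of 1318 was called (0%, smallest adjusted p = 0.246), and 32 (2.43%) had an unadjusted p below 0.05, 26 higher (1.97%) and 6 lower (0.455%). The correlation between libraries of a mouse was estimated at 0.175. Among miRNAs of at least 10 CPM, miR-676-3p had the smallest p. It stood at 94.6, 123, 127 and 76.4 CPM in aDR pons and at 196, 115, 224 and 125 CPM in AL pons, with overlap between the groups. In medulla it was at 120 to 214 CPM in aDR and 165 to 343 CPM in AL, and in cerebellum at 84.1 to 106 CPM and 96.0 to 143 CPM. The pooled log2 fold change was −0.51 (95% interval −0.96 to −0.06, limma adjusted p = 0.999). It was negative within each region, at −0.55, −0.61 and −0.32.

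miR-205-5p (1.92) and miR-200c-3p (2.44) followed, and carried the pons library of mouse 67. Without it and the cerebellum library of mouse 68 they were at 1.21 and 1.55. miR-7080-5p and miR-669a-5p, a member of the large Sfmbt2 cluster, had log2 fold changes of −1.27 and −0.53, again with a limma adjusted p of 0.999.

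Whether the diet difference itself depended on region was tested with an interaction term. It passed for 0 of 1318 miRNAs in limma (smallest adjusted p = 0.541), with 54 (4.1%) at an unadjusted p below 0.05. The 5 smallest p-values belonged to miR-8101, miR-3058-3p, miR-12202-3p, miR-1966-5p and miR-3057-3p. No difference in response between regions was thus shown, although calls were made in pons and cerebellum and not in medulla.

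The diet difference in these 3 regions was also set against that in the 11 other regions, from the same mice. It passed for 0 of 1334 miRNAs (limma, smallest adjusted p = 0.0685), with 114 (8.55%) at an unadjusted p below 0.05, 91 of them more negative in the hindbrain and cerebellum. miR-195a-3p, the opposite arm of the miR-195a hairpin, had the largest difference of the 5 with the smallest p (−2.10 on the log2 scale, SE 0.496), followed by miR-1251-5p (−1.81), miR-466h-3p (−1.63), miR-32-5p (−1.45) and miR-322-3p (−1.37). Each of the 5 had a mean below 10 CPM. Of the Sfmbt2 cluster list, 17 of 75 members were more negative at an unadjusted p below 0.05, against 6.82% of all miRNAs, with none past the adjusted threshold. This list was drawn by name (miR-297, miR-466, miR-467 and miR-669) and not by position. Its members share their libraries and are not separate observations. The 8 miRNAs of the olfactory bulb list were all more positive (median 1.45), 3 at an unadjusted p below 0.05 (1.72% of all miRNAs in that direction), and without the pons library of mouse 67 and the cerebellum library of mouse 68 these counts were 7 and 0 (median 0.59). All 11 let-7 members were also more positive (median 0.304), 1 at such a p. More negative were 3 of 3 aging, 5 of 6 microglia and myeloid and 4 of 5 vessel miRNAs. Of these, 1, 2 and 2 had such a p, against 6.82% of all miRNAs. The aging and myeloid lists share miR-155-5p and miR-146a-5p.

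The study followed miR-5100 and the immune miRNAs miR-146a-5p and miR-155-5p. The last of these promotes inflammatory responses of microglia and other myeloid cells, and miR-146a-5p dampens them through NF-kB signalling. In pons, miR-155-5p was at 27.2, 2.48, 17.2 and 11.8 CPM in aDR and at 10.9, 19.4, 12.6 and 24.5 CPM in AL. In medulla it was at 31.4, 29.8, 23.9, 46.9 and 36.0 CPM in aDR and at 35.6, 48.0, 30.5 and 49.0 CPM in AL. In cerebellum it was at 30.9, 16.0, 20.5 and 36.9 CPM in aDR and at 19.4, 38.8, 18.6 and 23.5 CPM in AL. The groups overlapped in all 3 regions, and the pooled log2 fold change was −0.25 (95% interval −0.88 to 0.38, limma adjusted p = 0.999).

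miR-146a-5p was more abundant and as variable. Its aDR libraries ran from 76.5 to 559 CPM in pons, 223 to 349 CPM in medulla and 64.7 to 187 CPM in cerebellum, and its AL libraries from 148 to 275, 287 to 318 and 88.2 to 202 CPM. The aDR range enclosed the AL range in pons and medulla. The pooled log2 fold change was −0.13 (interval −0.68 to 0.42). miR-5100 was near its detection limit, with 0 to 1.93 CPM over the 25 libraries, and its pooled difference of −0.66 had an interval of −1.73 to 0.40.

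miR-451a, which is made in red blood cells by Argonaute without Dicer, was at 0 to 7.03 CPM and at no more than 122 reads in a library. Its pooled log2 fold change was 0.95, with an interval of −0.81 to 2.70. The summed level of the red blood cell list was at most 21.1 CPM in any library. With region means removed, the miRNAs most like it over the 25 libraries were miR-200b-3p (r = 0.709), miR-182-5p (0.672), miR-139-5p (0.637), miR-200c-3p and miR-205-5p (both 0.623). All points share their libraries and depth, and among them is the pons library of mouse 67.

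Means per mouse over the 3 regions treated the animal as the unit. On the log2 scale, aDR minus AL for miR-155-5p came to −0.25, while miR-146a-5p had −0.15, miR-5100 had −0.50 and miR-451a had 0.80. The exact permutation p-values (two-sided, 126 arrangements, smallest possible 0.0159) were 0.524, 0.667, 0.357 and 0.278, each 0.667 after adjustment over the 4. Of the 5 aDR mice, 3, 2, 1 and 4 lay above the AL median.

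**Figure D4:**
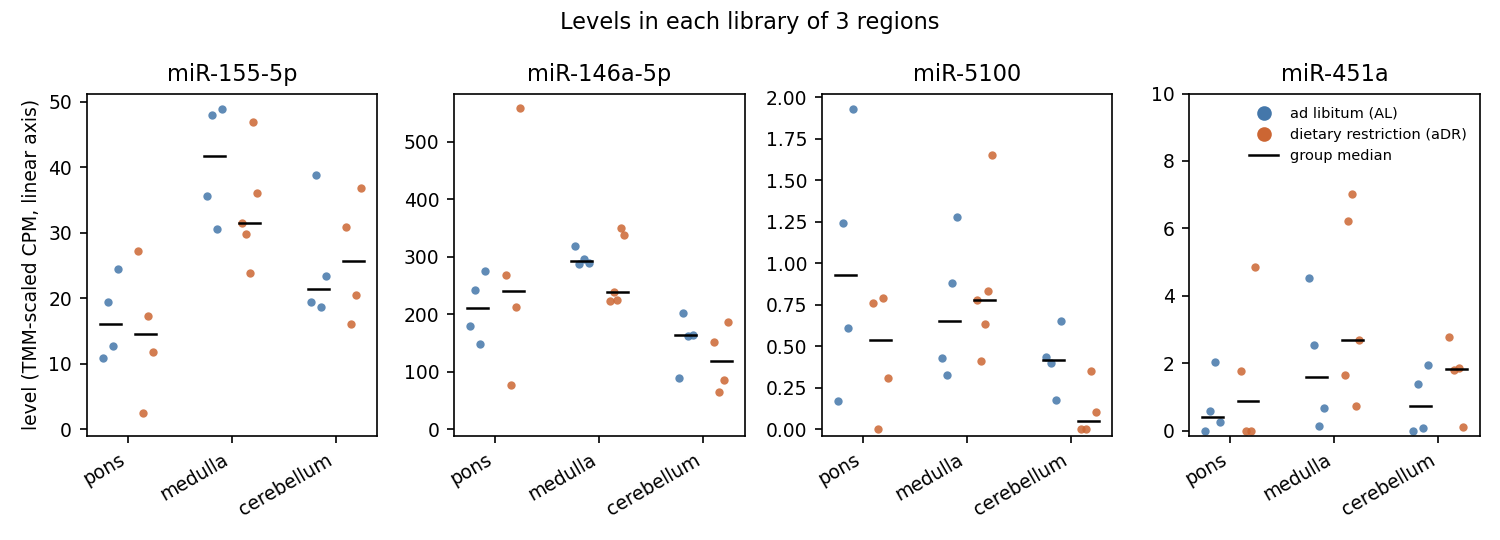
Level of miR-451a, miR-5100 and the immune miRNAs miR-146a-5p and miR-155-5p in each library (vertical axes, TMM-scaled CPM, linear) by region, AL in blue and aDR in orange, with a bar at each group's median. The groups overlapped in each region for each of the 4, and miR-451a stayed at or below 7.03 CPM.

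To see whether miRNAs that change with age moved with diet, slopes per month were fitted in the 142 libraries of the same 3 regions in the study's separate aging cohort, with sex as a term (edgeR). These mice were sampled at 7 ages from 3 to 28 months, and those above 21 months were all male, whereas the dietary cohort was female and 19 months old. The slope passed an adjusted p of 0.05 for 1 of 1118 miRNAs in pons (0.0894%, rising), for 3 rising (0.269%) and 4 falling (0.359%) of 1115 in medulla, and for 3 rising and 4 falling of 1114 in cerebellum. miR-5100 rose in each of the 3 regions, by 0.133, 0.148 and 0.128 on the log2 scale per month, at low means of 1.03, 0.716 and 0.231 CPM. miR-155-5p rose in medulla (0.0582) and cerebellum (0.0672), as did miR-146a-5p (0.0599 and 0.0654). In pons, miR-155-5p had a slope of 0.0534 (interval 0.0248 to 0.082) and miR-146a-5p one of 0.0595 (interval 0.029 to 0.0901). Both pons slopes were thus positive but did not pass the threshold (edgeR adjusted p = 0.0709 each). The study chose these 3 on the aging cohort, so their slopes there are no independent evidence. miR-451a had a slope of −0.01, 0.03 and 0.05 in pons, medulla and cerebellum, each with an interval that included 0. Of the 7 called in medulla, 0 had a diet p below 0.05, and of the 7 in cerebellum, 1 had, miR-7016-5p, which fell with age and had a diet log2 fold change of 5.13 (edgeR adjusted p = 0.783) at a mean of 0.108 CPM in that fit. Of the 3 that rose with age in medulla, 2 had a negative diet difference, as had 2 of 3 in cerebellum and the 1 in pons, all with intervals that included 0. Of the 4 that fell with age in medulla, 1 had a positive diet difference (median of the 4, −0.39), and of the 4 in cerebellum, 3 had (median 0.65).

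The other lists of cell type and pathway miRNAs were described by their counts. No member was called in any of the 3 regions or over them among the microglia and myeloid, vessel, oligodendrocyte, neuron, Hox cluster, muscle-type, miR-15 and miR-195, activity, let-7, miR-17 to miR-92, Dlk1-Dio3 locus, Sfmbt2 cluster, red blood cell and aging lists. Of the 15 nutrient and lipid miRNAs, miR-375-3p in pons was the only one called. The 4 oligodendrocyte miRNAs, which drive myelination, had a median of 0.36 in medulla and −0.62 in cerebellum, with 1 and 0 at an unadjusted p below 0.05 (7.13% and 3.56% of all miRNAs). With total-count scaling the medians were 0.75 and −1.19, against 0.48 and −0.51 over all miRNAs. Then 3 and 0 had such a p, the 3 being higher in aDR medulla, as were 168 of 1290 miRNAs. The 5 vessel miRNAs had a median of −0.19 over the 3 regions, and the 6 neuronal ones of −0.15. All 10 members of the miR-17 to miR-92 list had a negative difference in cerebellum and 9 of 10 in medulla, with 1 of 10 at an unadjusted p below 0.05 in each. These were miR-19a-3p in cerebellum (−4.04, in a direction with 1.82% of all miRNAs at that p) and miR-92a-3p in medulla (0.56, with 2.56%), named after their values were seen. For the imprinted Dlk1-Dio3 locus, 25 of 38 members had a positive difference over the 3 regions with a median of 0.08, near the 0.05 of all miRNAs. The activity list, with miR-132-3p that neuronal firing induces, had a median of 0.19 and 0 of 5 at an unadjusted p below 0.05. The summed level of microglia and myeloid miRNAs in medulla was 457 to 616 CPM in aDR and 439 to 602 CPM in AL, so these groups overlapped almost fully.

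Many more miRNAs were called between the regions than between the diets. Cerebellum was set against the mean of pons and medulla, with diet as a term and the mouse as block in limma voom. Of 1318 miRNAs, 441 were called (33.5%), 231 higher (17.5%) and 210 lower (15.9%) in cerebellum. This split depended on scaling, since the total miRNA count alone moved the median of all miRNAs from 0.13 to −1.89 and gave 1102 calls, 20 of them higher. Differences between regions are therefore given with TMM and, after it, with total-count scaling. miR-206-3p had the largest rise, of 5.43 (SE 0.253, adjusted p = 3.85e-17) and 3.48. It was at 3033 to 13045 CPM in the 8 cerebellum libraries, 99.1 to 508 CPM in pons and 61.5 to 201 CPM in medulla, without overlap between cerebellum and the others.

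miR-195a-5p and miR-497a-5p, encoded side by side at chr11:70235042-70235135 and chr11:70234717-70234800 and known to hold back the cell cycle, were higher in cerebellum by 4.62 and 3.69 (2.62 and 1.70 with total-count scaling). miR-192-5p (3.48 and 1.54) and miR-7b-3p (3.42 and 1.48) completed the 5 largest rises. The largest falls were those of miR-216a-5p (−5.47 and −7.33) and miR-3547-3p (−4.66 and −6.58). miR-429-3p, miR-200c-3p and miR-200b-3p came next with −4.26, −4.25 and −3.88 (−6.30, −6.19 and −5.59 with total-count scaling), and with TMM were at −3.86, −3.33 and −3.31 without the pons library of mouse 67 and the cerebellum library of mouse 68. The call of miR-429-3p was lost in 2 of 15 alternatives, while miR-200c-3p and miR-200b-3p stayed called in all 15. The 4 oligodendrocyte miRNAs were all lower in cerebellum and all higher in medulla than in pons, under each of 3 scalings. miR-219a-2-3p among them differed by −1.95 in the first contrast and by 0.81 in the second (−3.87 and 2.43 with total-count scaling).

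Medulla against pons gave 553 calls (42%), 332 higher (25.2%) and 221 lower (16.8%) in medulla. With total-count scaling, 845 of 871 calls were higher, and the median of all miRNAs went from 0.07 to 1.54. Medulla libraries were shallower than those of pons (median 7.46 and 13.4 mega-reads) and showed more miRNAs, and the part of this in the contrast was not tested. The 7 miRNAs of the Hox clusters, which pattern the hindbrain along its axis, were positive in 7 and called in 6, with miR-10b-5p at 5.47 (SE 0.537) and 6.90 and miR-10a-5p at 3.00 and 4.63. miR-384-3p (3.44 and 5.06), miR-350-3p (3.20 and 4.90), miR-216a-5p (2.98 and 4.61), miR-30c-5p (2.95 and 4.60) and miR-495-3p (2.88 and 4.56) had the largest rises among miRNAs of at least 10 CPM. miR-132-3p had the most negative difference (−4.88, SE 0.898, and −3.39 with total-count scaling). It was highly variable, at 10.8 to 2982 CPM in pons, 1.69 to 185 CPM in medulla and 33.6 to 2284 CPM in cerebellum, so pons and medulla overlapped. miR-542-5p (−4.39 and −2.88), miR-139-3p (−3.93 and −2.39), miR-668-3p (−3.59 and −2.08) and miR-412-3p (−3.57 and −2.07) followed. miR-139-3p was at 388 to 2862 CPM in pons and 55.4 to 179 CPM in medulla, with no overlap. let-7 calls depended on scaling. Under TMM 11 of 11 members were called higher in cerebellum and 10 of 11 lower in medulla, whereas under total counts 0 were called in cerebellum, and 2 higher and 3 lower in medulla.

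**Figure D5:**
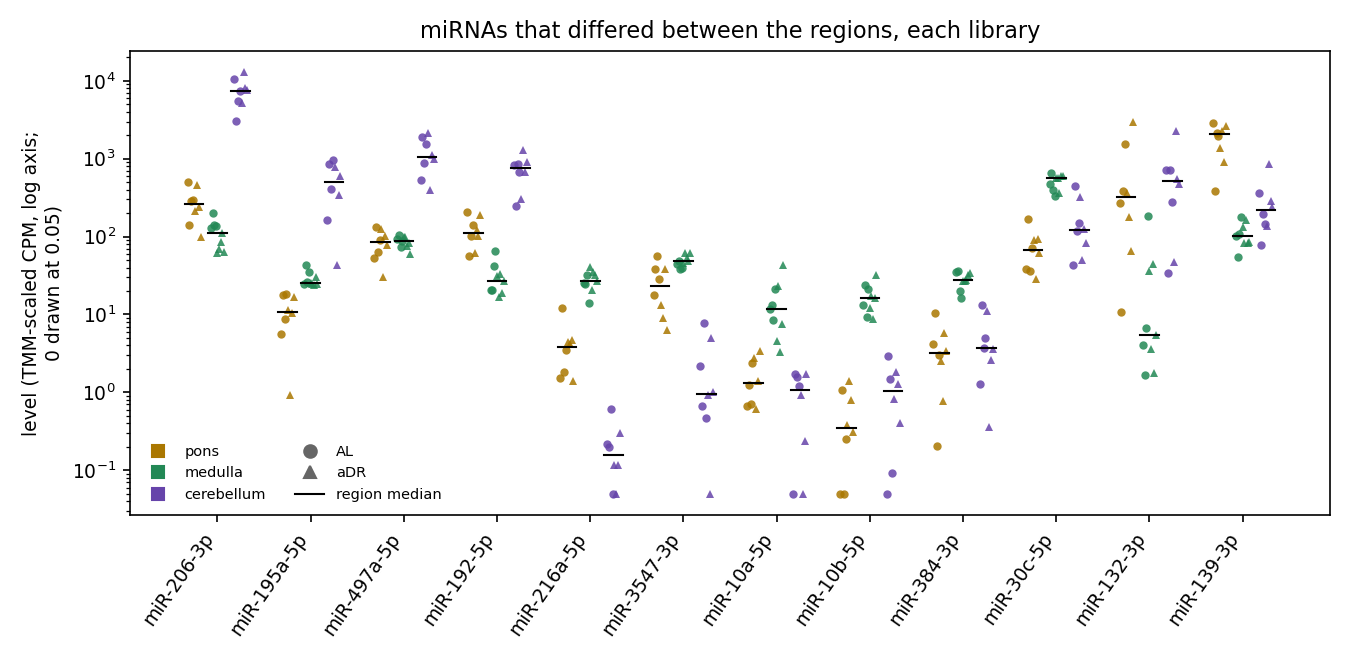
Level of 12 miRNAs named for the region contrasts in each library (vertical axis, TMM-scaled CPM on a log axis, with 0 drawn at 0.05), with colour for region, circles for AL and triangles for aDR, and a bar at each region's median. miR-206-3p was at 3033 CPM or more in each cerebellum library and at 508 CPM or less elsewhere. In medulla, every aDR symbol of miR-206-3p lay below every AL symbol.

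The deposited isomiR counts allowed the forms of miRNAs to be compared. isomiRs are variants of a mature miRNA that start or stop at other bases or carry a substituted base. Forms with a substitution counted among the reads, as in miR-146a-5p, where 1 of them took 29.9%. With at least 50 reads per library required, the share of the most frequent form was tested against diet in 15 combinations of miRNA and region, and none had an adjusted p below 0.05 (exact permutation test, adjusted p 0.929 each). With 70 or 126 arrangements per test, a single difference among the 15 could not have passed that threshold by itself. The smallest unadjusted p was 0.143, for miR-146a-5p in cerebellum (19.3% ± 4.12 in aDR and 24.9% ± 6.29 in AL, SD, n = 4 each), where the smallest possible exact p was 0.0286. miR-9-5p, a miRNA of neural progenitors and neurons, was most often 1 base shorter at its 3′ end. That form made up 77.1% ± 3.81 of its reads in aDR pons and 75.5% ± 5.68 in AL pons, 54.4% ± 2.43 and 55.1% ± 1.35 in medulla, and 68.5% ± 3.77 and 67.5% ± 6.41 in cerebellum (SD, n = 4 or 5). miR-206-3p was mostly of canonical length, at 70.9 to 76.9% as group means in the 3 regions, including medulla, where its level differed between diets before adjustment.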

How the data were processed

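Small RNA was measured in 25 libraries of pons, medulla and cerebellum from 9 mice, grouped by the treatment, region and mouse number in the labels. The authors sequenced single-end reads, aligned them to GRCm38 with Bowtie in miRMaster and counted them on miRBase mature miRNAs, keeping libraries above 2 mega-reads of aligned reads. The deposited miRNA and isomiR tables hold expected counts, 0.837% of the miRNA values being not whole, and these were rounded to whole numbers. Whether molecular identifiers were used is not given in the sources used here, and depth bounds counting error only. No column of the tables used lacked a sample, and no other deposited table was used here.

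A miRNA entered the fits when, in 1 region or more, at least 10% of libraries held 5 reads of it. Counts were scaled by TMM. Diet was tested within a region with edgeR 4.0.16 (quasi-likelihood F test), and over regions, between regions, as an interaction and against the other 11 regions with limma 3.58.1 (voom, mouse as a random block) in R 4.3.3. A call needed a Benjamini-Hochberg adjusted p below 0.05 over all miRNAs of the fit and at least 1.5-fold, or the adjusted p alone for the interaction, the contrast with other regions and slopes with age. Single values were tested by exact permutation. Fits were tested on simulated counts with known changes. No simulated library was made to stand apart from its group, so this does not bear on calls that rest on 1 library. Voom counts used TMM, and log2 levels a prior count of 2. Libraries of a mouse share its number and are the same animal, which pairs them: the correlation of deviations from group means was 0.297 to 0.87 between pons and cerebellum, −0.214 to 0.722 between pons and medulla and −0.325 to 0.597 between medulla and cerebellum, over 323 miRNAs.

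Named were the 5 largest called rises and falls per comparison at a mean of at least 10 CPM, or otherwise the 5 smallest p, the 5 smallest p of the interaction and of the contrast with other regions, called list members with 2 to 4 abundant examples per list, the 4 miRNAs of the study's interest and the 5 most like miR-451a. The other called miRNAs, miR-10a-5p, miR-10b-5p and the isomiR examples were named after their values were seen. The members, lists and tests were chosen with earlier results of these data known. The alternatives comprised total counts, relative log expression factors, DESeq2 1.42.0, limma voom, other filters, one fit of all regions, no block, the number of detected miRNAs as a term, leaving out each mouse and, chosen after seeing the data, a robust fit and leaving out libraries that stood apart or were shallow. Sequences (94 of 110 named miRNAs matched) and hairpin positions are from RefSeq, GRCm38.p6, and host genes from GENCODE on the same build.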

Additional observations from a re-analysis of the deposited data

Results flagged for a closer look

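In 10 of 100 groups of 4 or 5 libraries, 1 library stood apart from the others of its group by Dixon's test (the ratio of its gap to the range is given), which chance does in about 1 of 20 groups. Tested were log2 levels of miRNAs and, not log-transformed, depth, let-7c-5p share and number of detected miRNAs. All 10 were groups of miRNA levels. Most of these miRNAs were named for their diet differences and their groups share libraries, so the count is no independent test. In aDR pons this was mouse 67, the highest for miR-141-3p (ratio 0.883, 136 CPM), miR-141-5p (0.919, 53.3 CPM) and miR-200a-5p (0.871, 383 CPM). In AL pons it was mouse 68, the highest for miR-141-3p (1.00, 1.22 CPM), miR-182-5p (0.839, 7.63 CPM), miR-200a-3p (0.853, 1.22 CPM) and miR-200a-5p (0.865, 7.73 CPM). In AL cerebellum it was again mouse 68, for miR-34b-3p (0.845, 200 CPM), miR-34c-3p (0.849, 694 CPM) and miR-448-3p (0.937, 62.1 CPM). The pons values of mouse 68 thus concern miRNAs of the group that set mouse 67 apart, at levels lower by more than an order of magnitude. The groups of 5 medulla libraries gave none of these. The source of the RNA in these libraries was not tested.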

How the results depend on the processing

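The 17 calls in pons became 11 with total counts, 6 with all 3 regions in one fit, 1 with a robust fit and 0 with DESeq2, limma voom, a mean of at least 10 CPM or the number of detected miRNAs as a term. The fit at 10 CPM did not hold miR-141-5p, miR-200a-3p, miR-494-5p and miR-96-5p. Leaving out 1 mouse gave 1 to 25 calls, the 1 without mouse 67, where 7 of the 17 reversed. Their ranges over the mice left out were miR-200a-5p −0.93 to 8.60, miR-429-3p −1.58 to 9.50, miR-574-5p −0.12 to 4.09, miR-7b-5p −0.90 to 4.32, miR-182-5p −1.92 to 6.63, miR-7a-5p −0.80 to 3.71 and miR-183-5p −1.67 to 6.29. The 2 calls in cerebellum became 0 with total counts, DESeq2, limma voom or a robust fit and 4 with the number of detected miRNAs as a term, and leaving out 1 mouse gave 0 (without AL mouse 68) to 4 (without AL mouse 63 or 66). A mean of at least 10 CPM also gave 0 calls, but miR-448-3p and miR-1298-5p lay below that mean and were not in that fit. miR-375-3p (−2.07 to 2.75) and miR-34b-3p (−1.79 to 0.37) reversed there without mouse 68, and miR-323-5p (−0.13 to 2.27) without mouse 62. Medulla had 0 calls in each setting, as had the interaction and the contrast with other regions. Over the 3 regions, calls were 0 to 1, the 1 without mouse 63. Without mouse 62 miR-146a-5p reversed over the 3 regions (range −0.36 to 0.0899), and so did the mouse means of miR-155-5p (0.00695; range over mice −0.41 to 0.00695) and miR-146a-5p (0.063; range −0.37 to 0.063). The difference of mouse means for miR-5100 ranged from −0.72 (without mouse 63) to −0.22 (without mouse 62 or 69), with −0.87 at a prior count of 0.5 and −0.23 with total counts, and that for miR-451a from 0.51 (without mouse 64) to 1.30 (without mouse 65). Of the other settings for single miRNAs, 447 kept direction and side of the threshold and 119 lost the call. The cause of these changes was not tested beyond the omitted library.

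Cerebellum against pons and medulla gave 1102 calls with total counts and 200 at a mean of at least 10 CPM, and medulla against pons gave 871 and 207. For age slopes, females only gave 0, 1 and 22 calls in pons, medulla and cerebellum, and leaving out the 3-month mice gave 0, 2 and 1.

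Without the replicate block for the mouse, 0 miRNAs were called over the 3 regions, 399 between cerebellum and the others and 492 between medulla and pons, and it changed no other call of a comparison. No paired analysis was possible because aDR and AL share no mouse within a region.

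Depth limited miR-5100 and miR-451a, which had few reads. A median SE of 0.325 on the log2 scale at 10 CPM or more over the 3 regions, with 4 or 5 mice per group, sets the precision of the differences. p-values measure the spread between these mice only.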
